A study of Rattus norvegicus with 2 samples.

Results

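Thyrotropin-releasing hormone (Trh), corticotropin-releasing hormone (Crh), growth hormone-releasing hormone (Ghrh) and somatostatin (Sst) are the hypophysiotropic neuropeptides described here, together with receptors that bind them (Trhr, Crhr1, Crhr2, Sstr1 and Sstr2) and the binding protein Crhbp. The 10 genes were taken by gene name from the tables, and all 10 were found, with 14 of the 26324 mRNA transcripts and 10 of the 22777 genes listed. FPKM, the sequenced fragments per length of transcript, scaled to all mapped fragments of a column, was summed over the transcripts of a gene. Hypothalamic RNA came from female Sprague Dawley rats at 2 stages, prepubertal (postnatal day 25) and pubertal (postnatal day 35, vaginal opening, first estrus), with 3 hypothalami per stage. The rats of both stages were decapitated under pentobarbital sodium anesthesia, and the sources used here name no other agent and no altered gene. Each stage has 1 column of values in the tables. The sources used here do not say in what way the 3 rats of a stage entered that column, so no spread between animals can be set beside any difference and none of the differences has a replicate check.

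Hypophysiotropic neurons of the paraventricular, arcuate and periventricular nuclei release their peptides at the median eminence, from where portal blood carries them to the anterior pituitary. TRH stimulates thyrotropin and prolactin, CRH stimulates adrenocorticotropin, GHRH stimulates growth hormone, and somatostatin inhibits growth hormone and thyrotropin. Each peptide is cut from a larger precursor, and all but GHRH are also made by many other neurons of the hypothalamus and forebrain as transmitters.

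The files give no counts, but low FPKM values fell on steps, as the fragments of a transcript are whole. Taking the effective length as the transcript length less 259 nt in the prepubertal and 254 nt in the pubertal column, plus 1 nt, 92.2% of 1619 and 91.2% of 1693 low values were whole fragments within 0.05. The steps correspond to 20760000 and 16180000 fragments, 1.28 times as many before puberty, and for a transcript of 1000 nt 1 fragment is worth 0.0649 and 0.0827 FPKM. The fragments behind each value are estimates from these steps, and the 95% intervals below (exact, Poisson for a level and binomial for a ratio) cover counting error only, not the spread between rats or libraries. In RNA of a whole tissue, fewer cells of a type and less RNA per cell cannot be told apart.

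All 4 neuropeptide genes were listed with a higher FPKM in the pubertal column, each by a small step. Of all genes, 49.03% were listed higher as deposited and 83.4% with the columns scaled to equal Actb. For Crh and Ghrh the difference was within counting error. Trh and Sst were by far the most abundant, Crh was at a middle level, and Ghrh was near the lower end. Differences are given as log2 of (pubertal FPKM + 1) over (prepubertal FPKM + 1), and the 4 values lay between 0.13 and 0.24, with a median of 0.21. Over the 18052 genes with FPKM above 0 in either column the median was -0.01.

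Sst (ENSRNOG00000001837) went from 108 FPKM (95% counting interval 100.03 to 116) to 124 FPKM (115 to 135), a log2 ratio of 0.20. It ranked 1080 of 17434 genes above 0 in the prepubertal column and 945 of 17327 in the pubertal column, the top 6.19% and 5.45%. Trh (ENSRNOG00000011824) went from 53.4 FPKM (50.4 to 56.5) to 62.0 FPKM (58.4 to 65.8), a log2 ratio of 0.21, and ranked 2285 and 1959. The level intervals of the stages did not overlap for Trh and overlapped slightly for Sst. The FPKM ratio, pubertal over prepubertal and without the pseudocount, was 1.16 for Trh (1.07 to 1.26) and 1.15 for Sst (1.03 to 1.29).

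Crh (ENSRNOG00000012703) went from 6.099 FPKM (5.06 to 7.31) to 6.79 FPKM (5.57 to 8.26), a log2 ratio of 0.13, with an FPKM ratio of 1.11 (0.849 to 1.46). Ghrh (ENSRNOG00000007782) went from 2.20 FPKM (1.26 to 3.59) to 2.77 FPKM (1.60 to 4.54), a log2 ratio of 0.24, with an FPKM ratio of 1.26 (0.592 to 2.70). The Ghrh values rest on about 16 fragments in each column, and its interval is the widest of the neuropeptides. For Crh and Ghrh a difference between the columns was thus not detectable at this depth. Of the Ghrh transcripts, ENSRNOT00000010443 (607 nt) carried the whole value and ENSRNOT00000010298 (612 nt) was listed at 0 in both columns.

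**Figure D1:**
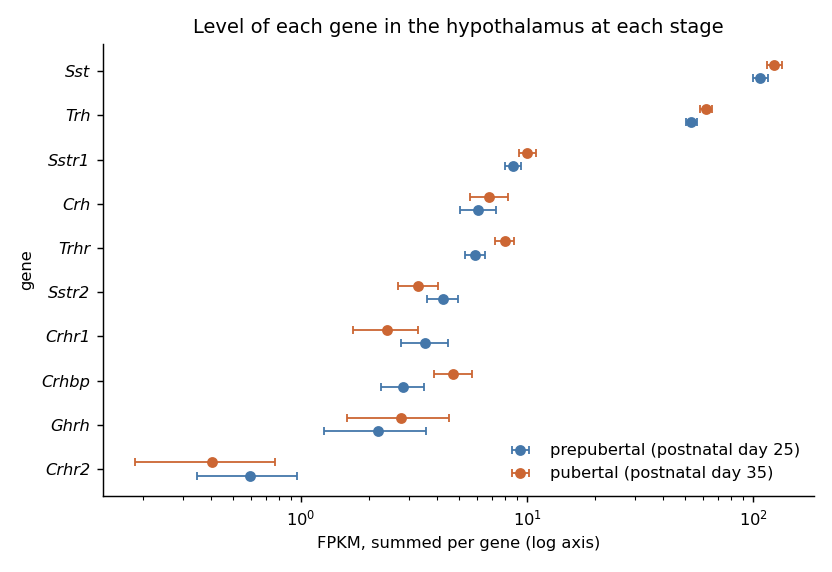
FPKM of each gene (horizontal log axis, summed over its transcripts) in the prepubertal (blue) and pubertal (orange) column, 1 value per stage, with bars for the 95% Poisson counting interval. Sst and Trh stood at 53.4 to 124 FPKM, and the other 8 genes at 0.404 to 10.02 FPKM.

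CREB-type factors bind the cyclic AMP response element (CRE), and the somatostatin gene is the textbook case of a promoter with this element. The letters of the CRE were therefore looked for beside the levels, in RefSeq windows of the GRCr8 build from 250 bases before to 50 bases after each annotated start. Of the 10 genes, 8 matched a window by symbol, and Crh and Trhr are not shown. The full CRE, TGACGTCA (its own reverse complement), was in the windows of Sst and Sstr2, against 1.83% of all 33469 windows. It lay at bases 3 to 10 after the annotated start of Sst and at bases 73 to 66 before that of Sstr2. Positions count from the start annotated by RefSeq, and whether transcription begins there was not tested. The shorter motif TGACG, which is contained in the CRE, was searched on both strands and was in 6 of the 9 windows of these 8 genes, those of Sst, Sstr2, Trh, Sstr1, Crhbp and Crhr2 but neither of the 2 windows of Crhr1, against 21.2% of all windows. The stretches from 110 bases before to 30 bases after the start are shown for the neuropeptide genes with a window and for Sstr2, with both motifs in capitals on the strand of the gene.
Sst (chr11:90461436-90461575, plus strand): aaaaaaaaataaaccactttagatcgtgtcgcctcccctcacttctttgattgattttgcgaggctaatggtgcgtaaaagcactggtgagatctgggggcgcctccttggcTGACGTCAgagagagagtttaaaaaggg
Trh (chr4:126301733-126301872, minus strand): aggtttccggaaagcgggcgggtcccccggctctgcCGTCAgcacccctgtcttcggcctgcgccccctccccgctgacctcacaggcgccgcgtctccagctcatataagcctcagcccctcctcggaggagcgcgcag
Ghrh (chr3:166431851-166431990, minus strand): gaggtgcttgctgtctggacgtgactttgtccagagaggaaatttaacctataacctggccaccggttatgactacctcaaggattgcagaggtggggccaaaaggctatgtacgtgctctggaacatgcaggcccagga
Sstr2 (chr10:99163243-99163382, plus strand): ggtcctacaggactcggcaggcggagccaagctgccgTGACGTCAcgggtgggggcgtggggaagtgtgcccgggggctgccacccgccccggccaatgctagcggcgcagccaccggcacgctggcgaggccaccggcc
The Ghrh stretch holds neither motif. A match is a run of letters and not a shown binding site. Whether these motifs bear on the levels of the genes was not tested.

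The receptors and the binding protein differed among themselves in direction. Crhbp, Trhr and Sstr1 were listed higher in the pubertal column, and Crhr1, Crhr2 and Sstr2 lower (Sstr2 not when scaled to equal Actb). Their median log2 ratio was 0.00.

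Crhbp (ENSRNOG00000017890), the secreted protein that binds CRH and urocortin and keeps them from their receptors, had the largest log2 ratio of the 10 genes. It went from 2.83 FPKM (2.25 to 3.52) to 4.72 FPKM (3.88 to 5.73), a log2 ratio of 0.58 and an FPKM ratio of 1.67 (1.24 to 2.26), with intervals of the stages that did not overlap. The estimated fragments were 81 before puberty and 106 at puberty, although the pubertal column had fewer fragments in all. On the FPKM + 1 scale its fold was 1.49, just under the size of 1.5-fold used here for a call.

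The CRH receptors were listed lower at puberty. Crhr1 (ENSRNOG00000004900), the main receptor for CRH, went from 3.54 FPKM (2.76 to 4.49) to 2.39 FPKM (1.70 to 3.29), a log2 ratio of -0.42 and an FPKM ratio of 0.676 (0.443 to 1.02). Crhr2 (ENSRNOG00000011145), which prefers the urocortins, went from 0.597 FPKM (0.348 to 0.958) to 0.404 FPKM (0.185 to 0.769), a log2 ratio of -0.19 and an FPKM ratio of 0.676 (0.266 to 1.61), on about 17 and 9 fragments. The intervals of both ratios hold 1, so for neither receptor was a difference detectable at this depth.

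The Crhr1 value comes from 2 transcripts that did not move alike. ENSRNOT00000006764 (1248 nt) went from 2.33 to 2.15 FPKM, an FPKM ratio of 0.919 (0.584 to 1.47). ENSRNOT00000032941 (1094 nt) went from 1.20 to 0.245 FPKM, an FPKM ratio of 0.203 (0.0348 to 0.610), or from 34.0% to 10.2% of the gene's FPKM. The shorter transcript thus holds most of the difference in Crhr1, on about 21 and 3 estimated fragments. Cufflinks divides fragments between transcripts of a gene that share exons, and the interval leaves out the error of that division. Of the Crhr2 transcripts, ENSRNOT00000033672 carried the whole value and ENSRNOT00000014925 was listed at 0 in both columns.

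Trhr (ENSRNOG00000005048), the TRH receptor of the pituitary thyrotropes that is also made in brain, went from 5.90 FPKM (5.33 to 6.53) to 7.98 FPKM (7.22 to 8.80). Its log2 ratio was 0.38 and its FPKM ratio 1.35 (1.17 to 1.56), on about 382 and 403 fragments, and the intervals of the stages did not overlap. Among the genes listed higher its log2 ratio came next after that of Crhbp, and Crhr1, listed lower, had the larger absolute value.

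The somatostatin receptors, which couple to inhibitory G proteins, went apart. Sstr1 (ENSRNOG00000048145) went from 8.67 FPKM (7.99 to 9.42) to 10.02 FPKM (9.18 to 10.9), a log2 ratio of 0.19 and an FPKM ratio of 1.16 (1.02 to 1.30). Sstr2 (ENSRNOG00000002793) went from 4.25 FPKM (3.62 to 4.97) to 3.29 FPKM (2.68 to 4.02), a log2 ratio of -0.29 and an FPKM ratio of 0.774 (0.597 to 1.004). The level intervals of the stages overlapped for each of these receptors, and Sstr2 was no longer lower once the columns were scaled to equal Actb (log2 ratio 0.03). Nearly all of the Sstr2 value came from ENSRNOT00000003735 (2088 nt), from 4.12 to 3.29 FPKM, while ENSRNOT00000003734 had 0.134 FPKM in the prepubertal column and was listed at 0 in the pubertal one.

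**Figure D2:**
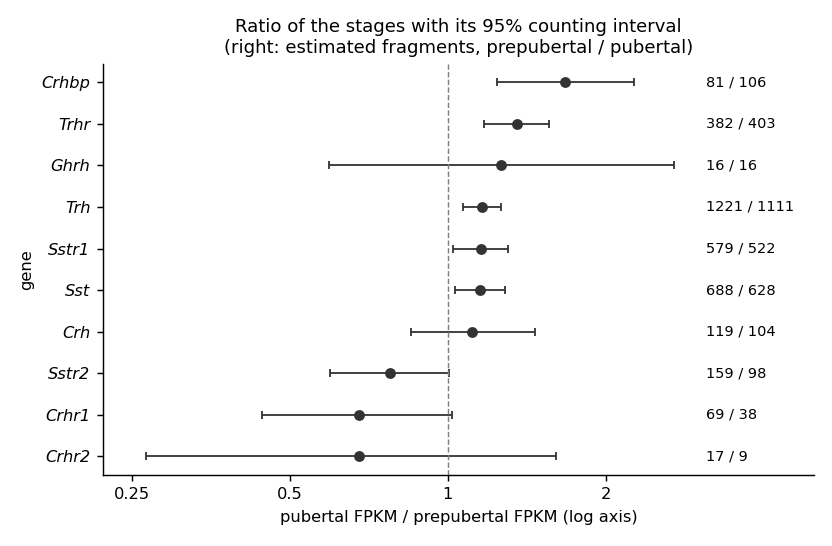
Pubertal over prepubertal FPKM of each gene (horizontal log axis, dashed line at equal FPKM) with its exact 95% counting interval, and at the right the estimated fragments in each column. Crhbp, Trhr, Trh, Sstr1 and Sst lie wholly above 1, and no gene lies wholly below 1.

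Of the 8 genes with at least 40 fragments over both columns, the counting interval of the FPKM ratio lay wholly above 1 for 5 and wholly below 1 for 0. Among all 14008 genes with at least 40 fragments and FPKM above 0 in both columns, 19.4% lay wholly above 1 and 23.8% wholly below, so an interval that leaves out 1 was common between these 2 columns. By size, 0 of the 10 genes reached 1.5-fold in FPKM + 1 in either direction. Over all genes above 0, 1.81% reached it higher and 2.34% lower at puberty, and among the 4427 genes with a mean of 2 to 10 FPKM, where 7 of the 10 lie, 2.46% and 3.79% did. Of the 10 genes, 7 were listed higher and 3 lower, against 49.03% of all genes higher, and their median log2 ratio was 0.20. With equal Actb 8 were higher, against 83.4% of all genes. At a smaller size, a log2 ratio of 0.32 or more, Crhbp and Trhr were past it higher and Crhr1 lower, against 7.56% and 10.1% of all genes. Crhr1 was not past it with equal Actb (-0.12) or with its most abundant transcript alone (-0.08).

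**Figure D3:**
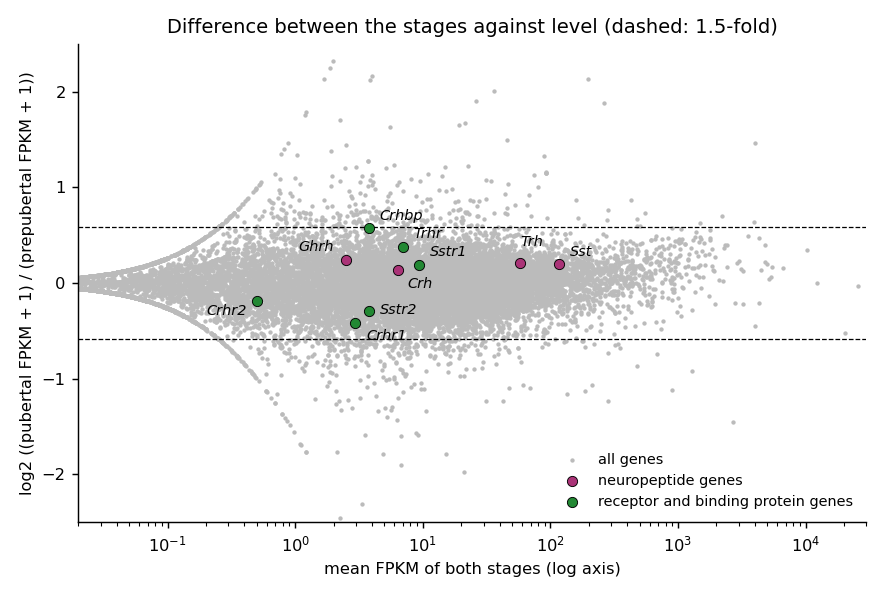
Log2 ratio of (FPKM + 1), pubertal over prepubertal, against the mean FPKM of both stages (log axis) for all genes (grey, with 279 outside the axes), the neuropeptide genes (purple) and the receptor and binding protein genes (green). All 10 genes lie between the dashed lines at 1.5-fold, with Crhbp at 0.58 just under the upper line.

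Because FPKM is per transcript length, levels of different genes can be set in order within a column. Before puberty the order was Sst, Trh, Sstr1, Crh, Trhr, Sstr2, Crhr1, Crhbp, Ghrh and Crhr2. The counting intervals overlapped between Crh and Trhr, between Sstr2 and Crhr1, between Crhr1 and Crhbp, and between Crhbp and Ghrh. Overlap of 2 intervals does not show that the levels are alike, before puberty or at puberty, and differences between neighbours were not tested. At puberty the order was Sst, Trh, Sstr1, Trhr, Crh, Crhbp, Sstr2, Ghrh, Crhr1 and Crhr2. There the intervals overlapped between Trhr and Crh and for each next pair down to Crhr1. Crhbp had moved from below Crhr1 to above it, with level intervals that did not overlap at puberty (3.88 to 5.73 against 1.70 to 3.29 FPKM).

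Ratios of 2 genes within a column do not depend on how the columns are scaled against each other. The 8 ratios given here were chosen after the values were seen, and how often the counting interval of such a change leaves out 1 among other gene pairs was not computed, so they are a description. Sstr1 stood at 2.04 times Sstr2 before puberty and at 3.04 times at puberty, a change of 1.49 (1.12 to 1.99). Sstr2 stood at 0.0394 times its ligand gene Sst and then at 0.0265 times, a change of 0.671 (0.505 to 0.890).

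For CRH, Crhbp stood at 0.464 times Crh before puberty and at 0.695 times at puberty, a change of 1.5 (0.996 to 2.26). Crhr1 stood at 0.580 and 0.352 times Crh, a change of 0.607 (0.366 to 1.001). Both intervals reach 1. The ratio of Crhr1 to Crhr2 was 5.92 and 5.93, a change of 1.0001 (0.377 to 2.81), and that of Trhr to Trh 0.111 and 0.129, a change of 1.16 (0.987 to 1.37). Sstr1 kept to 0.0804 and 0.0805 times Sst, a change of 1.002 (0.851 to 1.18). Ghrh and Sst, which act against each other on growth hormone, stood at a ratio of 0.0204 and 0.0223, a change of 1.09 (0.507 to 2.36).

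The other genes of the same pathways were read by the same size. Of 45 genes in 8 lists, 41 were matched by name, and Cort, Pcsk1, Dio2 and Dio3 were not analysed here. Of the 41 genes, 0 were past 1.5-fold higher and 1, Crtc1, past it lower, with 18 listed higher, 21 lower and a median log2 ratio of -0.01. The share listed higher, 43.9% against 49.03% of all genes, rested on the scaling, as it was 53.7% against 56.7% with equal medians and 82.9% against 83.4% with equal Actb. Crtc1, a coactivator of CREB, had 5.47 FPKM before puberty and 3.16 at puberty, a log2 ratio of -0.64 and an FPKM ratio of 0.577 (0.441 to 0.751), and was not past this size with equal Actb (-0.32). Crem, a CREB relative that binds the same element, was the most abundant of this list of 6 genes and went from 22.4 to 28.7 FPKM (log2 ratio 0.34). Of this list 4 were higher and 2 lower, and the median was 0.05.

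Among other ligands and receptors, Ucn, the urocortin that binds both CRH receptors, went from 1.08 to 0.580 FPKM on about 7 and 3 fragments (FPKM ratio 0.540, 0.0903 to 2.37), and Ucn2 was listed at 0 in both columns. Of the 3 other somatostatin receptor genes matched 2 were higher and Sstr4 lower, from 2.19 to 1.80 FPKM (log2 ratio -0.19, but 0.09 with equal Actb). Sstr3 had 3.64 and 4.59 FPKM, a log2 ratio of 0.27 and an FPKM ratio of 1.26 (1.06 to 1.49). The 3 other genes of the TRH system, Trhr2, Trhde and Pgpep1, were all listed lower as deposited, with log2 ratios between -0.25 and -0.12, and all higher with equal Actb (0.09 to 0.27). Trhr2, the other TRH receptor of rodents, went from 5.93 to 4.82 FPKM, an FPKM ratio of 0.812 (0.665 to 0.993) as deposited. Trhr and Trhr2 were thus at nearly the same FPKM before puberty, and at puberty Trhr stood above Trhr2. Pgpep1, a peptidase that removes the pyroglutamyl residue of TRH, went from 15.2 to 13.9 FPKM.

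For the growth hormone axis, Ghrhr, the GHRH receptor, was listed at 0 in the prepubertal column and had 0.202 FPKM in the pubertal one. The pubertal value rests on only about 4.5 estimated fragments. Ghr, the growth hormone receptor, went from 6.08 to 5.40 FPKM (log2 ratio -0.14, but 0.20 with equal Actb). Ghrl was listed at 0 in both columns. Of the 4 genes of this list 1, Ghrhr, was higher and 2 lower as deposited, with a median of -0.04. With equal Actb 3 were higher and 0 lower, with a median of 0.17.

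Of the 6 processing genes matched, which cut, trim and amidate peptide precursors, 3 were listed higher and 3 lower, with a median log2 ratio of 0.02, and with equal Actb 5 were higher and Cpe lower. Cpe, the carboxypeptidase that trims basic residues from peptide ends, was the most abundant and went from 854 to 610 FPKM (log2 ratio -0.49). Of the 9 transcription factors of the peptide neurons, 5 were higher and 4 lower, with a median of 0.00, and with equal Actb 8 were higher and Otp lower. Isl1, a LIM homeodomain factor of arcuate neurons, went from 5.69 to 8.01 FPKM (log2 ratio 0.43), and Arnt2, the partner of SIM1, from 25.6 to 23.7 FPKM (-0.11, but 0.28 with equal Actb). Of the 7 hormone feedback genes matched, 2 were higher and 5 lower as deposited, with a median of -0.05, while 5 were higher with equal medians and 7 with equal Actb. Thra, a thyroid hormone receptor, went from 101 to 99.3 FPKM (-0.02, but 0.38 with equal Actb) and Igf1r from 5.36 to 4.41 FPKM (-0.23, but 0.10 with equal Actb).

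**Figure D4:**
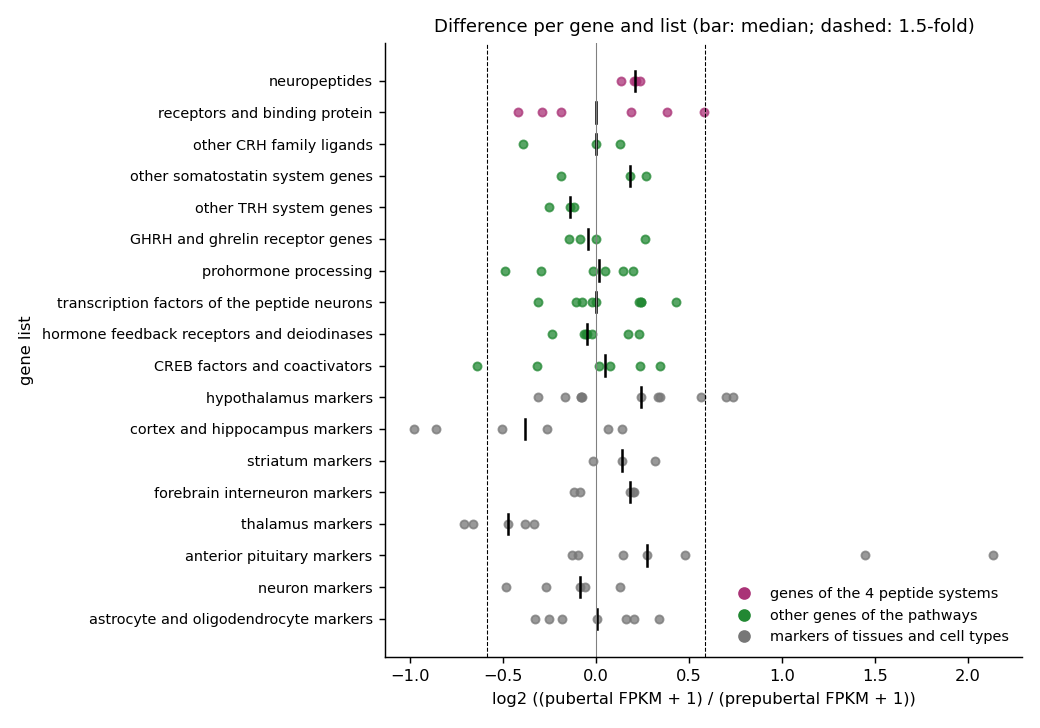
Log2 ratio of (FPKM + 1), pubertal over prepubertal, of each gene (points) in the lists of the 4 peptide systems (purple), other genes of their pathways (green) and markers of tissues and cell types (grey), with the median of each list as a bar and 1.5-fold dashed. The 4 neuropeptides lie between 0.13 and 0.24, with Ghrh on about 16 fragments in each column (0.32 with a pseudocount of 0.1). All 5 thalamus markers lie below 0 as deposited (Prkcd and Plekhg1 not with equal Actb).

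The labelled tissue was checked against 11 hypothalamus markers, none of which was at 0 in either column. Their summed FPKM was 2611 before puberty and 3999 at puberty, mostly through Pmch, from 1675 to 2723 FPKM (log2 ratio 0.70), and Oxt, from 411 to 686 FPKM (0.74), the 2 that were past 1.5-fold higher. Of the 11 markers 6 were listed higher and 5 lower (Nkx2-1, Rax, Six6, Otp and Avp, with log2 ratios of -0.31 to -0.07, of which only Rax and Otp stayed lower with equal Actb), and the median was 0.24. All 5 thalamus markers were listed lower at puberty (Prkcd and Plekhg1 not when scaled to equal Actb, at 0.07 and 0.01), with sums of 161 and 121 FPKM and 2 past 1.5-fold, Gbx2 from 4.29 to 2.24 FPKM (-0.71) and Tcf7l2 from 19.9 to 12.2 FPKM (-0.66), while Prkcd went from 108 to 85.3 FPKM. Of 6 cortex and hippocampus markers 4 were lower, with sums of 34.1 and 17.1 FPKM, and Slc17a7 went from 26.2 to 12.8 FPKM (-0.98) and Neurod6 from 5.08 to 2.36 FPKM (-0.86).

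Of 7 anterior pituitary markers 5 were listed higher at puberty, with sums of 31.8 and 44.5 FPKM. Prl was listed at 0 and then at 3.40 FPKM (about 41 fragments). Gh1 went from 0.872 to 4.09 FPKM (log2 ratio 1.44) on about 10 and 37 fragments. Fshb was also listed at 0 before puberty and rested on about 9 fragments at puberty. Tshb went from 4.68 to 5.28 FPKM (FPKM ratio 1.13, 0.640 to 1.99). The 2 lower were Lhb, from 1.44 to 1.29 FPKM (-0.09, but 0.15 with equal Actb), and Pou1f1, from 0.155 to 0.0565 FPKM. They rested on about 7 and 5, and 7 and 2 fragments. Cga, which the pars tuberalis also makes, went from 24.6 to 29.97 FPKM (0.27). Sst and Crh also mark interneurons of the forebrain, and the 5 markers of such cells, 3 higher and 2 lower, summed to 322 and 316 FPKM, with Pvalb from 38.7 to 44.8 FPKM (0.21), Cck from 257 to 242 FPKM (-0.08) and a median of 0.19. The 3 striatum markers analysed, 2 higher and 1 lower, summed to 35.97 and 40.96 FPKM, with Ppp1r1b from 26.3 to 29.1 FPKM (0.14) and Rgs9 from 8.13 to 10.4 FPKM (0.32). Of the 5 neuron markers 4 were lower, with a median of -0.09, Snap25 going from 654 to 628 FPKM (-0.06) and Rbfox3 from 9.23 to 6.33 FPKM (-0.48), and Map2 was higher, from 255 to 279 FPKM (0.13). Of the 7 astrocyte and oligodendrocyte markers analysed 4 were higher and 3 lower, with a median of 0.00. Mbp went from 4633 to 5335 FPKM (0.20) and Aldh1l1 from 16.9 to 21.6 FPKM (0.34), and the lower markers were Aqp4 (-0.25) and, of the oligodendrocytes like Mbp, Mog (-0.18) and Mag (-0.33). With equal Actb the interneuron, striatum, and astrocyte and oligodendrocyte markers were all higher, as were 4 of the 5 neuron and 6 of the 7 pituitary markers. The part of these shifts in the values of the 10 genes was not tested.

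The size of the differences depended on the processing. Scaled to equal Actb, which went from 763 to 576 FPKM, the pubertal column is multiplied by 1.32, and the median log2 ratio of all genes becomes 0.30. The 10 genes then had a median of 0.55, and Crhbp, Trhr, Trh and Sst were past 1.5-fold higher, against 13.4% of all genes, with 0.947% lower. With equal medians of the columns (factor 1.05), or with a pseudocount of 0.1 in place of 1, Crhbp alone was past 1.5-fold higher, against 2.25% and 7.31% of all genes, with 1.91% and 8.68% lower. With equal Actb, Sstr2 was at 0.03 instead of -0.29, and Crhr1 and Crhr2 were lower by less, at -0.12 instead of -0.42 and at -0.06 instead of -0.19. With the most abundant transcript alone Crhr1 was at -0.08, and with a pseudocount of 0.1 Crhr2 was at -0.47. In the other 6 settings tried, each of the 10 genes that could be computed kept its side of 0.

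**Figure D5:**
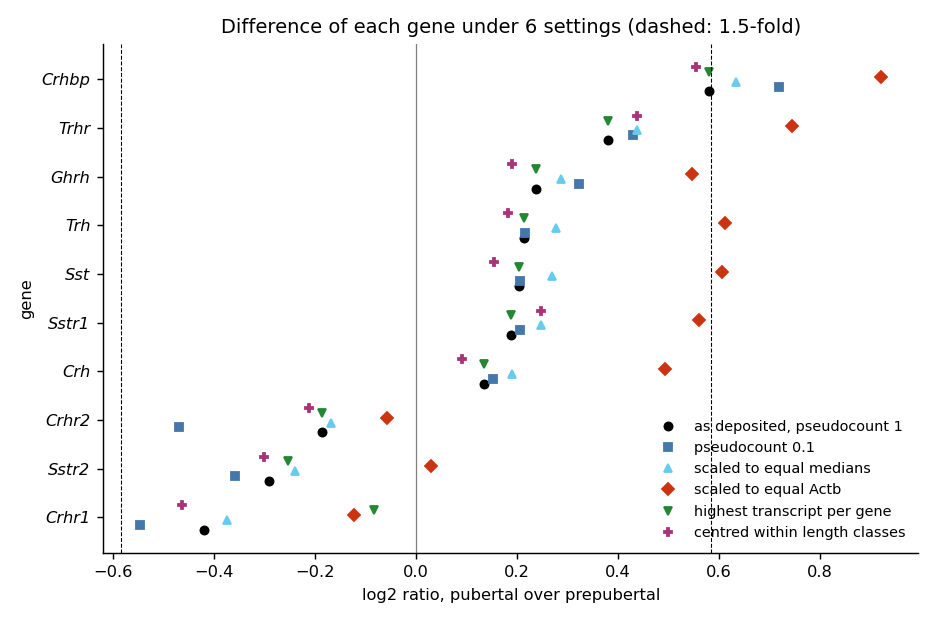
Log2 ratio of each gene, pubertal over prepubertal, as deposited with a pseudocount of 1 (black circles) and under other settings (other symbols), with 1.5-fold dashed. Scaling to equal Actb (red diamonds) moves every gene to the right and carries Sstr2 across 0, from -0.29 to 0.03.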

How the data were processed

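The study isolated hypothalamic RNA at both stages, removed ribosomal RNA, made strand-specific libraries and sequenced paired ends. The authors deposited FPKM values per transcript, made with TopHat, Cufflinks 2.1.1 and Cuffdiff 2.1.1, with the build Rnor_5.0 in the submitters' processing notes. The methods of the study link a rat annotation of a later build, and this difference was not resolved here. The p-value, q-value and fold columns of the authors' comparison table were not used, and that table supplied gene names and transcript lengths. FPKM of 13 transcripts, 0 of them of the 10 genes, differed between the authors' tables, and the mRNA table was used.

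FPKM was summed per gene, with a pseudocount of 1 for log2 ratios and a size of 1.5-fold for calls. With 1 column per stage no test was made. Fragments were estimated from the steps of FPKM in transcripts of 600 to 4000 nt from genes with 1 transcript. The step search and the calls were tested on simulated data. Alternatives were a pseudocount of 0.1, genes of at least 1 FPKM, equal medians (factor 1.05), equal Actb, the highest transcript per gene, centring within 10 length classes, a smaller (log2 0.32) and a larger (2-fold) size, and, added after seeing the data, FPKM of the comparison table.

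All 10 genes are named. From every other list the most abundant gene, the gene with the largest absolute log2 ratio and genes past 1.5-fold are named, and others named beside them (Ucn2, Ghrl, Sstr4, Trhde, Fshb, Tshb, Lhb, Pou1f1, Map2, Aqp4, Mog, Mag, Nkx2-1, Rax, Six6, Otp, Avp and Plekhg1) were chosen after their values were seen. The members and lists were chosen with earlier results of these data known. The values of 2 marker genes are not reported here, and their lists were read without them. With 2 columns, likeness of pattern between genes was not computed. Promoter windows are RefSeq's, of GRCr8, matched by symbol. Python 3.11.15, scipy 1.17.1, numpy 2.4.6, matplotlib 3.10.9 and pandas 2.3.3 were used.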

Additional observations from a re-analysis of the deposited data

How the results depend on the processing

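No paired analysis was possible because the tables hold 1 column per stage, and for the same reason no replicate could be left out. The count of the 10 genes past 1.5-fold higher was 0, and became 1 (Crhbp) with a pseudocount of 0.1 or equal medians, 4 with equal Actb and 2 at the smaller size (log2 0.32), where the count lower went from 0 to 1 (Crhr1, not past this size with equal Actb or its most abundant transcript alone). At 2-fold both counts were 0. Their median log2 ratio went from 0.20 to 0.55 with equal Actb, where Sstr2 turned from -0.29 to 0.029. Among the other pathway genes, those past 1.5-fold higher and lower went from 0 and 1 of 41 to 3 and 2 with a pseudocount of 0.1 (7.31% and 8.68% of all genes), and to 5 and 0 with equal Actb (13.4% and 0.947%), where the median of all genes also shifted to 0.30. The factor of Actb follows from 1 gene, and whether Actb or most genes differed between the tissues was not tested. Depth limited Ghrh and Crhr2 most, with about 16 and 16, and 17 and 9 fragments.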
